A study of Homo sapiens with 6 samples.

Results

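Semaphorins, ephrins, slits and netrins are guidance cues, and the plexins, neuropilins, Eph kinases, ROBO proteins and DCC and UNC5 family proteins are the receptors that read them. Their mRNAs were followed in U2OS cells with and without an siRNA against NUDT5. Members were every gene whose symbol starts with SEMA, PLXN, EPHA, EPHB, EFNA, EFNB, ROBO, SLIT (SLITRK left out), NTN or UNC5 followed by a digit or letter, plus NRP1, NRP2, DCC and NEO1. There were 73 members among 19977 gene symbols, namely 36 ligands, 35 receptors and 2 genes that only share the name. These last are UNC50, which encodes a Golgi membrane protein, and UNC5CL, a death domain protein that lacks the netrin-binding part of the UNC5 receptors. The members were chosen by symbol and by no measured value, but the group was proposed with earlier log2 differences of this same comparison known, that of SEMA6B among them. Counts over the members are therefore descriptions.

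U2OS is a human osteosarcoma line, so every library comes from 1 line. Cells were untreated apart from transfection with siRNA that targets no gene (siCtrl) or that targets NUDT5 (siNUDT5), a hydrolase of ADP-ribose, and polyadenylated RNA was taken 48 hours later from 3 libraries per group. The sources used here do not say whether 1 siRNA or a pool was used, or its sequence. The labels do not state that the 3 libraries of a group are separate cultures. The p-values thus weigh differences against library-to-library spread that may be only technical.

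Many guidance cues are held on the cell surface, and others are secreted. Secreted class 3 semaphorins bind neuropilins, which hand the signal to class A plexins, whereas membrane-bound semaphorins bind plexins directly, and plexins act on the cytoskeleton through small GTPases. A-type ephrins are held by a lipid anchor and prefer EphA kinases, B-type ephrins span the membrane and prefer EphB kinases, and both sides of an ephrin and Eph contact can signal. Slits repel cells through ROBO receptors, and netrins attract through DCC and neogenin (NEO1) and repel through UNC5 receptors. Outside the nervous system the same families act in blood vessels, bone and tumours; in bone, semaphorins and ephrins pass between osteoblasts and osteoclasts.

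The values are TPM, transcript abundance scaled for length and library total, so levels can be set side by side between genes. Group values are means ± SD over 3 libraries (n = 3). Relative depth, read from the step size of low values, ran from 64.1% (siCtrl 2) to 118% of siCtrl 1. siCtrl 2 also stood apart in expression, at a median absolute log2 difference of 0.296 and 0.227 from the other siCtrl libraries against 0.0967 to 0.134 for the remaining pairs within a group. NUDT5 stood at 49.1 ± 2.9 TPM in siCtrl and 2.82 ± 0.198 TPM in siNUDT5 (exact two-sided permutation p = 0.1, the smallest that 3 against 3 libraries allow). Of 7 mesenchymal and osteoblast markers 5 averaged 1 TPM or more, whereas COL1A2 (0.168 TPM) and TWIST1 (0.0466 TPM) were near 0. Blood and glial markers all had means under 1 TPM, as did the 4 of 5 endothelial markers that were matched by symbol. The endothelial marker PECAM1 was not matched and has no value here. Of 5 neuronal markers 4 reached 1 TPM, with a summed level of 16.5 to 20.4 TPM in siCtrl and 24 to 27.1 TPM in siNUDT5, and 4 of 5 epithelial markers did, at 19.1 to 21.2 and 15.6 to 16.3 TPM. The mesenchymal and osteoblast sum was 4064 to 4361 TPM in siCtrl and 4770.5 to 4874 TPM in siNUDT5, most of it VIM. The osteoblast marker ALPL (log2 change 0.49, adjusted p = 0.0472 in limma) and the neuronal markers SNAP25 (0.86) and SLC17A7 (0.57) rose. Neuronal SYT1 (-0.21) and RBFOX3 (0.10) did not pass. Of the epithelial markers EPCAM fell (-0.74, adjusted p = 0.0271 in limma), while CDH1 (-0.10), KRT14 (0.31) and CLDN4 (0.06) did not pass. The part of these shifts in the results below was not tested.

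Guidance genes stood mostly higher in siNUDT5, on the ligand and on the receptor side. The transmembrane semaphorin SEMA6B, the netrin receptor UNC5C, the semaphorins SEMA4C and SEMA7A and the Eph kinase EPHA4 had the largest rises, and ROBO3, a divergent member of the slit receptor family, was the member that fell. Of 73 members 51 averaged 1 TPM or more and were tested with limma on log2(TPM + 1) (siNUDT5 minus siCtrl, two-sided, Benjamini-Hochberg adjustment over all 12236 tested genes, threshold 0.05). Of these 51, 21 rose, 1 fell and 29 did not pass. Among all tested genes 10.9% were called higher and 5.2% lower, and with median-ratio scaling 8.45% and 7.39%, beside 19 members higher and 1 lower. The 3 siNUDT5 values all lay above the 3 siCtrl values in 28 tested members, against 24.3% of all tested genes, and all below in 2, ROBO3 and SEMA3E, against 12.9%. UNC5C and SEMA6A passed the filter only through siNUDT5 and SEMA3D only through siCtrl. Among the 48 members with a mean of at least 1 TPM in each group 20 rose and 1 fell.

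With all libraries, ligands and receptors had median changes of like size, and rises were counted on both sides. The median log2 change was 0.36 over 27 tested ligands (quartiles 0.11 and 0.63) and 0.38 over 23 tested receptors (0.17 and 0.57), beside 0.05 over all tested genes (-0.12 and 0.23). Without siCtrl 1 the ligand and receptor medians were 0.29 and 0.44, and without siCtrl 2 they were 0.43 and 0.36. Summed over all ligands the mean level was 269 TPM in siCtrl and 382 TPM in siNUDT5, a ratio of 1.42. For receptors it was 433 and 529 TPM, a ratio of 1.22. Of the ligands 10 rose and 0 fell, and of the receptors 11 rose and 1 fell. The change was above 0 in 22 of 27 ligands and 22 of 23 receptors, against 57.7% of all tested genes. Within the ligands, membrane-bound members (transmembrane or lipid-anchored) had a median of 0.48, with 8 of 18 higher. Secreted members had one of 0.13, with 2 of 9 higher, against 10.9% of all tested genes. This gap was narrower without siCtrl 2, where 21.9% of all tested genes were called higher. In that fit the secreted SEMA3A (0.43) and SEMA3C (0.58) also passed as higher. So did the membrane-bound EFNB1 (0.39) and NTNG1 (0.47), while the membrane-bound EFNA4 (-0.39) passed as lower. No test was made between roles or between membrane-bound and secreted ligands, since the members were chosen with results known.

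**Figure D1:**
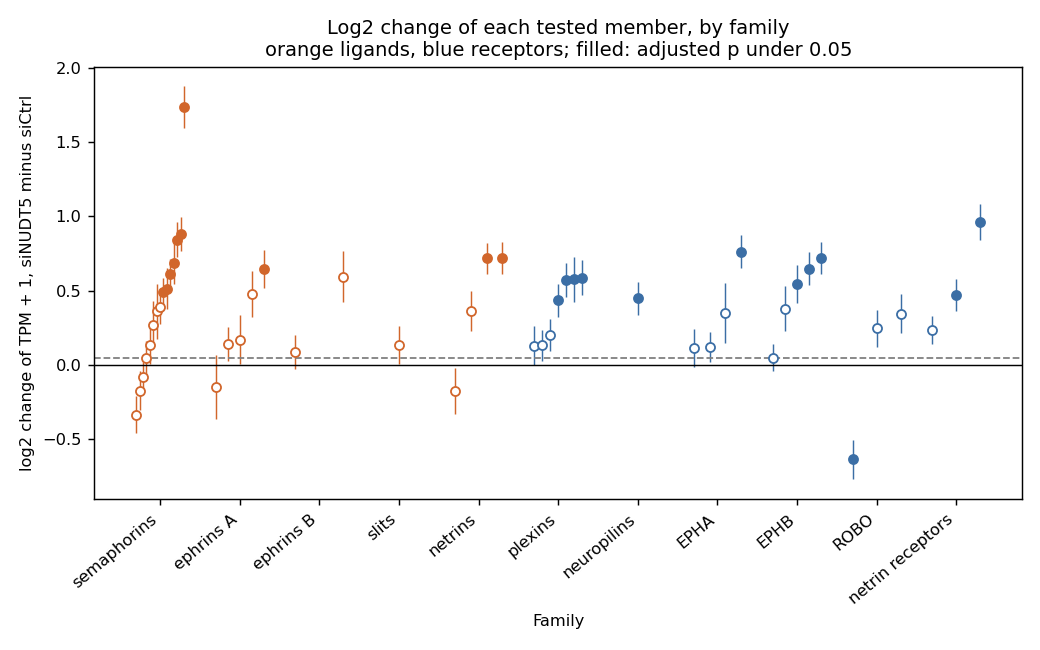
Log2 change of TPM + 1 (siNUDT5 minus siCtrl) for each tested member by family, with its standard error; ligands in orange, receptors in blue, filled where the adjusted p is under 0.05, and the dashed line at the median of all tested genes (0.05). SEMA6B stands highest at 1.74 and ROBO3 lowest at -0.64, and every tested plexin, EPHA, EPHB and netrin receptor gene lies above 0.

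The count of calls depended on single libraries. It was 21 higher and 2 lower without siCtrl 1, 28 and 2 without siCtrl 2, 12 and 0 without siCtrl 3, and 11 and 1, 10 and 1, and 12 and 0 without siNUDT5 1, 2 and 3. Over all tested genes the share called higher moved the same way, to 21.9% without siCtrl 2 and to between 4.25% and 4.84% without siCtrl 3 or any 1 siNUDT5 library. Without siCtrl 1 it was 10.9%. The share called lower was 6.06% without siCtrl 1, 9.27% without siCtrl 2 and 1.74% to 2.52% in the other fits of this kind. The calls of SEMA3F, SEMA4C, SEMA6B, SEMA7A, NTN1, NTNG2, EPHA4, EPHB1, EPHB4 and UNC5C were kept in every alternative that tested them, 13 for NTNG2, EPHA4, EPHB1 and UNC5C and 14 for the others. SEMA4F, SEMA6C, PLXNA1, PLXNC1, PLXND1, NRP1, EPHB3 and UNC5B lost the call without siCtrl 3 or any 1 siNUDT5 library, PLXNC1 and NRP1 also without siCtrl 1, and PLXNA2, SEMA4B and EFNA1 without 2 or 3 of these 4. In these fits the adjusted p of lost calls ran from 0.0515 to 0.138. Members that passed without siCtrl 2 and not with it were EFNB1, EPHA5, NEO1, NTNG1, ROBO1, SEMA3A and SEMA3C, higher, and EFNA4, lower. Among members that passed in neither fit, the log2 change without siCtrl 2 went from 0.20 to 0.10 in PLXNB2, from 0.12 to 0.03 in EPHA2, from 0.17 to 0.01 in EFNA3, and from 0.05 to -0.01 in EPHB2.

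The 3 ligands with the largest rises were membrane-bound semaphorins, SEMA6B, SEMA4C and SEMA7A. Of 19 semaphorins 15 were tested and 7 rose, while none fell, against 10.9% higher and 5.2% lower among all tested genes. SEMA6B, a class 6 transmembrane semaphorin that binds class A plexins, stood at 10.6, 7.46 and 7.72 TPM across siCtrl 1 to 3, against 31.6, 32.9 and 27.5 TPM across siNUDT5 1 to 3. The groups were far apart, with the lowest siNUDT5 value above the highest siCtrl value. It rose from 8.58 ± 1.72 to 30.7 ± 2.81 TPM (log2 difference 1.74, SE 0.141, adjusted p = 0.000427 in limma), a ratio of means of 3.57, and ranked 12 among all 12236 tested genes by log2 change. Its class 6 relatives were much lower in level. SEMA6C rose from 1.16 ± 0.338 to 2.05 ± 0.115 TPM (log2 change 0.51), SEMA6A stood at 0.859, 0.743 and 0.823 TPM across siCtrl 1 to 3, against 1.49, 1.44 and 1.18 TPM across siNUDT5 1 to 3 without passing (adjusted p = 0.0563), and SEMA6D was under the filter. In SEMA6A the groups did not overlap, and it passed as higher in the fits without a filter and without a trend.

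SEMA4C, a class 4 semaphorin that binds plexin B2, stood at 16.9, 13.3 and 14.1 TPM across siCtrl 1 to 3, against 29.3, 29.2 and 25.7 TPM across siNUDT5 1 to 3. It rose from 14.8 ± 1.88 to 28.1 ± 2.07 TPM (log2 difference 0.88, SE 0.115, adjusted p = 0.00232 in limma). SEMA7A, a lipid-anchored semaphorin that binds plexin C1 and integrins, stood at 35.5, 26.4 and 32.4 TPM across siCtrl 1 to 3, against 55.3, 59 and 56.1 TPM across siNUDT5 1 to 3. It rose from 31.4 ± 4.62 to 56.8 ± 1.92 TPM (log2 change 0.84, adjusted p = 0.00292 in limma), and in both genes every siNUDT5 value was above every siCtrl value. SEMA4B (0.69) and SEMA4F (0.49) also rose. SEMA4D, the class 4 semaphorin that osteoclasts use to hold back osteoblasts, stood at 4.8 ± 0.294 TPM in siCtrl and 4.47 ± 0.189 TPM in siNUDT5 (log2 change -0.08, adjusted p = 0.63), and SEMA4G, at a log2 change of 0.13, did not pass either. In class 4 as a whole 3 of 5 tested members rose, against 10.9% of all tested genes.

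The secreted class 3 semaphorins differed among themselves. SEMA3F, which signals through neuropilin 2, was the class 3 member that rose, from 7.31 ± 0.563 to 11.7 ± 0.384 TPM (log2 difference 0.61, SE 0.10, adjusted p = 0.00592 in limma). SEMA3C was the semaphorin with the highest level, at 40.6, 66.5 and 42.2 TPM across siCtrl 1 to 3, against 71.7, 56.4 and 60.3 TPM across siNUDT5 1 to 3. siCtrl 2 lay among the siNUDT5 values, and the log2 change was 0.36 with adjusted p = 0.227, while without siCtrl 2 it was 0.58 with adjusted p = 0.000701 (limma). SEMA3A, whose protein binds neuropilin 1 and is known to protect bone, showed the same layout, with a log2 change of 0.27 in all libraries and 0.43 without siCtrl 2. SEMA3E, the ligand of plexin D1, went the other way, at 8.43, 11.6 and 9.95 TPM across siCtrl 1 to 3, against 7.77, 7.73 and 7.42 TPM across siNUDT5 1 to 3. Its groups did not overlap, but the log2 change of -0.34 did not pass (adjusted p = 0.103). It passed as lower without siCtrl 1 and under quantile normalization. SEMA3E, SEMA3A and SEMA3D follow each other on chromosome 7 in RefSeq's order of protein-coding genes, and their log2 changes were -0.34, 0.27 and -0.17. SEMA3D, in the same run of genes, and SEMA3G (0.04) were near 1 TPM and did not pass.

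Of 7 tested ephrins EFNA1 rose (14.3%) and no other passed, a share near the 10.9% of all tested genes called higher. EFNA1, a lipid-anchored ligand of EphA kinases, stood at 4.07, 4.58 and 5.53 TPM across siCtrl 1 to 3, against 8.75, 7.8 and 7.26 TPM across siNUDT5 1 to 3, and rose from 4.73 ± 0.741 to 7.94 ± 0.752 TPM (log2 difference 0.65, SE 0.129, adjusted p = 0.013 in limma). EFNB1, a transmembrane ephrin of bone and skull development, had the highest ephrin level in siNUDT5, at 22.8, 13.9 and 20.3 TPM across siCtrl 1 to 3, against 26.3, 32.2 and 27.7 TPM across siNUDT5 1 to 3. Its groups did not overlap, siCtrl 2 was the lowest value, and the log2 change of 0.59 had adjusted p = 0.0509. Without siCtrl 2 the change was smaller, at 0.39, and passed (adjusted p = 0.0101 in limma). EFNA2 had a log2 change of 0.48 with adjusted p = 0.0703, also without overlap. EFNA4, EFNA3 and EFNA1 lie close together on chromosome 1, and their log2 changes were -0.15, 0.17 and 0.65. EFNA4 stood at 20.5, 11.8 and 19.7 TPM across siCtrl 1 to 3, against 12, 17.1 and 16.7 TPM across siNUDT5 1 to 3, where siCtrl 2 and siNUDT5 1 were the lowest values. Without siCtrl 2 it passed as lower (log2 change -0.39, adjusted p = 0.0377 in limma). EFNB3 (0.09) and EFNA5 (0.14) did not pass.

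Of 4 tested netrins NTN1 and NTNG2 rose, against 10.9% of all tested genes. NTN1, the laminin-related secreted netrin that binds DCC, neogenin and UNC5 receptors, stood at 8.79, 7.76 and 8.24 TPM across siCtrl 1 to 3, against 15.3, 13.1 and 14.3 TPM across siNUDT5 1 to 3. It rose from 8.26 ± 0.516 to 14.2 ± 1.09 TPM (log2 difference 0.72, SE 0.103, adjusted p = 0.00361 in limma), and the groups did not overlap. NTNG2, a lipid-anchored netrin-G that binds LRRC4 and not DCC, rose from 2.39 ± 0.167 to 4.58 ± 0.234 TPM (log2 change 0.72, adjusted p = 0.00396 in limma), whereas its relative NTNG1 had a log2 change of 0.36 and overlapping groups. NTN4, a netrin of basement membranes and the member of its family with the highest mean over all libraries, stood at 12.9 ± 3.02 TPM in siCtrl and 11.1 ± 0.717 TPM in siNUDT5 and did not pass (-0.18). Its highest value was that of siCtrl 2 (16.3 TPM). SLIT2, the slit tested, stood at 8.54 ± 1.46 TPM in siCtrl and 9.37 ± 0.375 TPM in siNUDT5 with a log2 change of 0.13, and SLIT1 was listed at 0 in all 6 libraries.

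**Figure D2:**
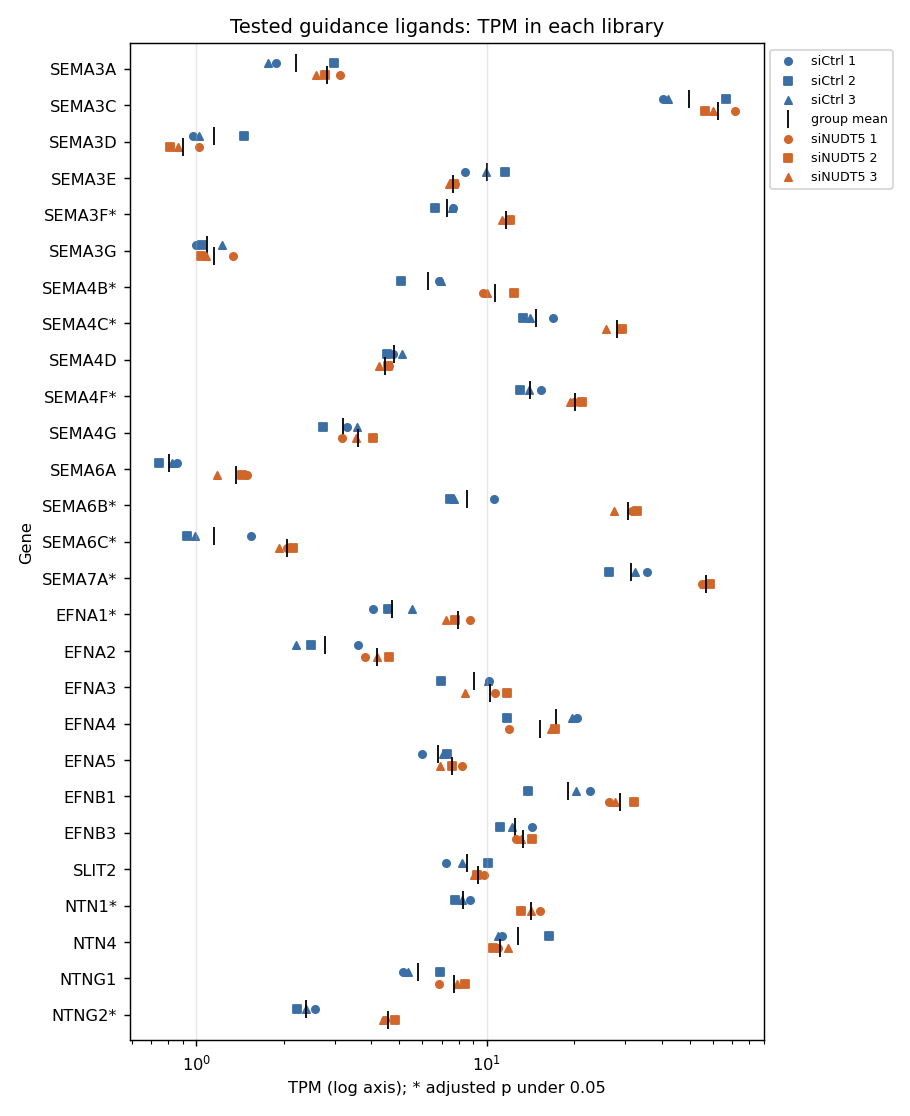
TPM of each tested ligand in each library on a log axis, siCtrl in blue and siNUDT5 in orange with 1 marker shape per replicate number, black ticks at group means and * for an adjusted p under 0.05. SEMA6B has all siCtrl values at or under 10.6 TPM and all siNUDT5 values at or above 27.5 TPM, and siCtrl 2 lies apart from the other siCtrl libraries in SEMA3C and EFNB1.

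Of 9 plexins 7 were tested, and 4 rose, PLXNA1 and PLXNA2 of class A, PLXNC1 and PLXND1, against 10.9% of all tested genes. PLXND1, the receptor of SEMA3E in vessels, stood at 15.8, 12.1 and 14.5 TPM across siCtrl 1 to 3, against 20.9, 22.5 and 20.8 TPM across siNUDT5 1 to 3. It rose from 14.2 ± 1.9 to 21.4 ± 0.951 TPM (log2 difference 0.57, SE 0.115, adjusted p = 0.0136 in limma), with no overlap between groups. PLXNA2 rose from 2.78 ± 0.265 to 4.68 ± 0.472 TPM (log2 change 0.59), PLXNA1 from 24.2 ± 2.87 to 32.9 ± 2.09 TPM (0.43) and PLXNC1, the receptor of SEMA7A, from 1.22 ± 0.415 to 2.28 ± 0.181 TPM (0.58). PLXNA1 passed neither with median-ratio scaling (adjusted p = 0.0621 in limma) nor with quantile normalization (0.0742), and SEMA6C lost its call under the same scalings. The tested class B plexins, PLXNB1 and PLXNB2, did not pass, and PLXNB3 was under the filter. PLXNB2, the receptor of SEMA4C and the most abundant receptor of the set, stood at 118, 95.6 and 119 TPM across siCtrl 1 to 3, against 129.8, 135 and 118 TPM across siNUDT5 1 to 3, where siCtrl 2 was lowest and siNUDT5 3 lay below siCtrl 1 (log2 change 0.20, adjusted p = 0.24). PLXNB1 (0.13) and PLXNA3 (0.13) did not pass. NRP1, the co-receptor of class 3 semaphorins and of VEGF, stood at 15.6, 19.3 and 16.1 TPM across siCtrl 1 to 3, against 25.1, 23.1 and 22.3 TPM across siNUDT5 1 to 3. It rose from 17 ± 2.0 to 23.5 ± 1.41 TPM (log2 difference 0.45, SE 0.109, adjusted p = 0.0275 in limma).

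Of 9 tested Eph kinases EPHA4, EPHB1, EPHB3 and EPHB4 rose and none fell, against 10.9% higher and 5.2% lower among all tested genes. EPHA2, the most abundant Eph kinase, stood at 107, 87.7 and 105 TPM across siCtrl 1 to 3, against 104, 116 and 105 TPM across siNUDT5 1 to 3. Its groups overlapped, with a log2 change of 0.12 (adjusted p = 0.473 in limma). EPHB2 stood at 39.6 ± 3.33 TPM in siCtrl and 40.9 ± 0.816 TPM in siNUDT5 and had a log2 change of 0.05. EPHB4, a partner of ephrin B2 in vessels and bone and close to EPHB2 in level, did rise. It stood at 42.6, 33.5 and 38.8 TPM across siCtrl 1 to 3, against 61.2, 64.8 and 55.1 TPM across siNUDT5 1 to 3, from 38.3 ± 4.59 to 60.4 ± 4.93 TPM (log2 difference 0.65, SE 0.112, adjusted p = 0.00747 in limma), with every siNUDT5 value above every siCtrl value. EPHA4, which binds ephrins of both types, had the largest Eph change, at 1.93, 2.19 and 1.87 TPM across siCtrl 1 to 3, against 4.36, 3.84 and 4.04 TPM across siNUDT5 1 to 3. That was from 2.0 ± 0.171 to 4.08 ± 0.266 TPM (log2 difference 0.76, SE 0.11, adjusted p = 0.00368 in limma), a ratio of means of 2.04. EPHB1 rose from 2.86 ± 0.279 to 5.35 ± 0.299 TPM (log2 change 0.72) and EPHB3 from 2.47 ± 0.45 to 4.03 ± 0.271 TPM (0.54). EPHB6, a family member without kinase activity, stood at 9.38, 6.23 and 9.52 TPM across siCtrl 1 to 3, against 10.7, 11.1 and 11.2 TPM across siNUDT5 1 to 3, without overlap and without passing (0.38, adjusted p = 0.132). Without siCtrl 2 its log2 change was 0.20. EPHA5 (0.35) and EPHA6 (0.11) did not pass and their groups overlapped.

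The slit receptors were split. ROBO3, which in commissural neurons keeps slit repulsion in check, stood at 4.95, 4.0 and 4.16 TPM across siCtrl 1 to 3, against 2.67, 2.71 and 1.99 TPM across siNUDT5 1 to 3. Every siNUDT5 value was below every siCtrl value, and it fell from 4.37 ± 0.508 to 2.46 ± 0.407 TPM (log2 difference -0.64, SE 0.133, adjusted p = 0.0155 in limma). The call was lost without siCtrl 3 and without siNUDT5 3, with log2 changes of -0.66 and -0.54. ROBO4, the endothelial slit receptor family member beside ROBO3 on chromosome 11, stood at 1.31, 0.828 and 0.976 TPM across siCtrl 1 to 3, against 1.4, 1.77 and 1.57 TPM across siNUDT5 1 to 3, a log2 change of 0.34 with adjusted p = 0.12. ROBO1, the main slit receptor and the most abundant of the family here, stood at 25.3 ± 4.01 TPM in siCtrl and 30.0 ± 2.03 TPM in siNUDT5, with a log2 change of 0.25 (adjusted p = 0.215) in all libraries and 0.36 (adjusted p = 0.00811) without siCtrl 2.

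UNC5 receptors mediate repulsion and can trigger cell death when netrin is absent. Of 4 UNC5 receptors UNC5B and UNC5C were tested, UNC5C past the filter only through siNUDT5, and both rose, while neogenin did not pass. Among all tested genes 10.9% were called higher. UNC5C stood at 0.564, 0.566 and 0.348 TPM across siCtrl 1 to 3, against 2.06, 1.78 and 1.86 TPM across siNUDT5 1 to 3. In whole reads this was 42, 27 and 29 reads across siCtrl 1 to 3 against 137, 156 and 146 across siNUDT5 1 to 3. It rose from 0.493 ± 0.125 to 1.9 ± 0.146 TPM (log2 difference 0.96, SE 0.122, adjusted p = 0.00217 in limma), a ratio of means of 3.85 that the log2(TPM + 1) scale understates at so low a level. UNC5B, which also acts in vessels, rose from 4.73 ± 0.377 to 6.93 ± 0.446 TPM (log2 change 0.47, adjusted p = 0.0217 in limma). NEO1 stood at 18.5, 21.2 and 20.0 TPM across siCtrl 1 to 3, against 24.2, 24.4 and 22.1 TPM across siNUDT5 1 to 3, without overlap, and had a log2 change of 0.23 (adjusted p = 0.138). DCC was under the filter, at 0.569 TPM on average. UNC50, kept as a name match, stood at 35.9 ± 0.823 TPM in siCtrl and 37.8 ± 1.22 TPM in siNUDT5 and did not pass (0.07).

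**Figure D3:**
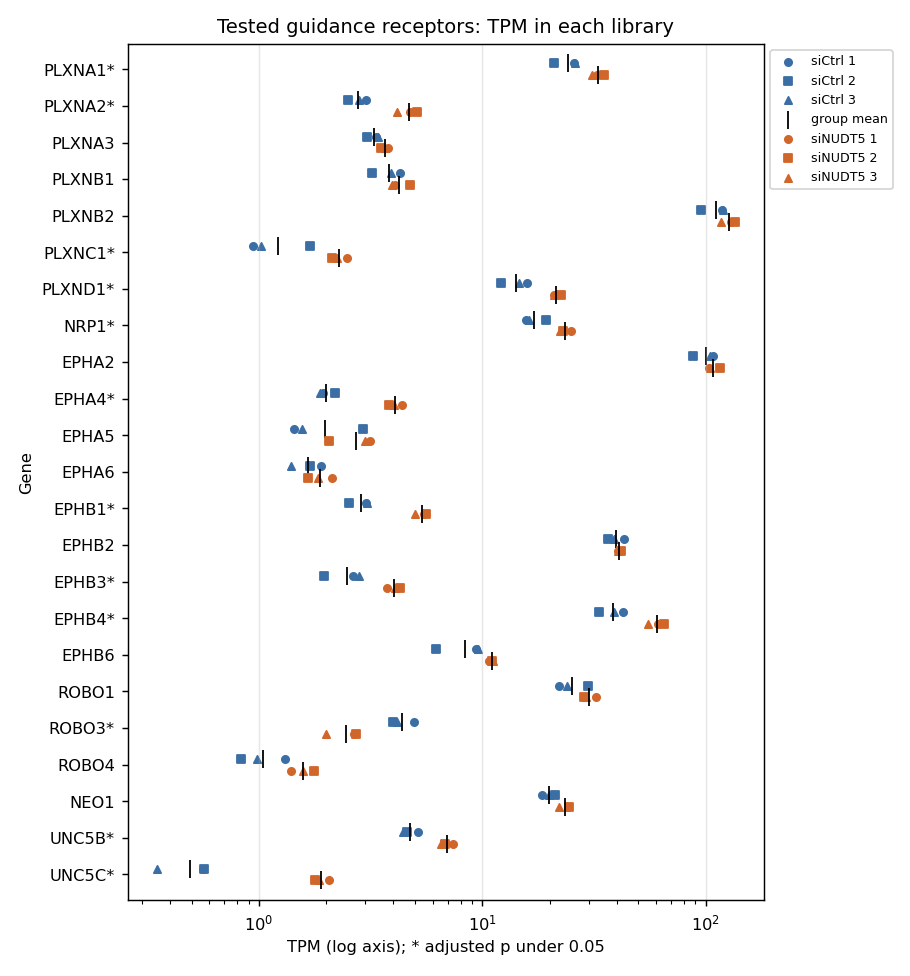
TPM of each tested receptor in each library on a log axis, siCtrl in blue and siNUDT5 in orange with 1 marker shape per replicate number, black ticks at group means and * for an adjusted p under 0.05. EPHA4, EPHB1 and UNC5C show separated groups, PLXNB2 and EPHA2 with means of 111 and 99.9 TPM in siCtrl overlap, and ROBO3 has its siNUDT5 values to the left.

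The other 22 members had a mean under 1 TPM and were not tested. SLIT1 and SEMA5B were listed at 0 in all 6 libraries, and for the other 20 the TPM of each library fell on whole reads within 0.03 of a read, taking the smallest whole numbers that fit. PLXNA4, a class A plexin, had 14, 10 and 25 reads across siCtrl 1 to 3 against 48, 72 and 48 across siNUDT5 1 to 3. SEMA6D had 8, 6 and 6 reads across siCtrl 1 to 3 against 21, 24 and 31 across siNUDT5 1 to 3, PLXNB3 15, 8 and 15 reads across siCtrl 1 to 3 against 20, 32 and 31 across siNUDT5 1 to 3, and SLIT3 43, 18 and 46 reads across siCtrl 1 to 3 against 61, 81 and 79 across siNUDT5 1 to 3. All 4 were higher in every siNUDT5 library per depth as well (0.153 against 0.472 TPM for PLXNA4), and in the fit without a filter they passed, with adjusted p of 0.0155 to 0.0368. SEMA6A also passed there. That fit tests 16903 genes, of which 6.66% were called higher. UNC5A had 15, 2 and 5 reads across siCtrl 1 to 3 against 16, 28 and 18 across siNUDT5 1 to 3, a wide spread within siCtrl, and did not pass there (adjusted p = 0.0843). EFNB2, the ephrin that EPHB4 binds best, had 7, 6 and 8 reads across siCtrl 1 to 3 against 15, 8 and 14 across siNUDT5 1 to 3 and did not pass. NRP2, the receptor of SEMA3F, had 18, 11 and 7 reads across siCtrl 1 to 3 against 22, 20 and 15 across siNUDT5 1 to 3. The Eph kinase EPHA10 had 50 reads over the siCtrl libraries and 39 over the siNUDT5 libraries, EPHA8 had 24 and 36, EPHA7 15 and 18, EPHA3 13 and 12, and the name match UNC5CL 31 and 22. DCC, UNC5D and SEMA5A had 79, 70 and 210 reads over the siCtrl libraries and 81, 68 and 200 over the siNUDT5 libraries. SEMA4A, NTN3, NTN5, EPHA1 and ROBO2 had at most 3 reads in any library, where no difference could be seen at this depth. The filter lay between SEMA3D (1.03 TPM), just inside, and SEMA5A (0.838 TPM), just outside.

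Summed over all members of a family, the mean level was higher in siNUDT5 for each of the 11 ligand and receptor families, with the largest ratio in the semaphorins (1.56) and the smallest in the EPHA kinases (1.11). Semaphorin transcripts summed to 158 ± 7.46 TPM in siCtrl and 246 ± 10.6 TPM in siNUDT5, with no overlap between the groups. SEMA3C alone held 49.7 TPM of the siCtrl sum, and the classes 4, 6 and 7 together went from 85.4 ± 10.8 to 158 ± 8.55 TPM. Plexins summed to 161 ± 18.6 TPM in siCtrl and 198 ± 12.7 TPM in siNUDT5, most of it PLXNB2. The EPHB sum was 91.6 ± 10.1 TPM in siCtrl and 122 ± 5.84 TPM in siNUDT5, while the EPHA sum, most of it EPHA2, was 106 ± 9.57 TPM in siCtrl and 118 ± 5.63 TPM in siNUDT5 and overlapped between groups. The A-type ephrins summed to 40.6 ± 6.56 TPM in siCtrl and 45.2 ± 3.09 TPM in siNUDT5, also with overlap. The slit and ROBO sums overlapped too. There siCtrl 2, at 10.5 and 34.6 TPM, lay above siNUDT5 2 (10.3 and 33.1 TPM) and siNUDT5 3 (10.2 and 32.7 TPM). Netrin receptors summed to 26.4 ± 0.968 TPM in siCtrl and 33.9 ± 1.8 TPM in siNUDT5 and netrins to 29.4 ± 3.32 TPM in siCtrl and 37.7 ± 0.812 TPM in siNUDT5. TPM are shares of a library, so a rise of the sums says nothing of RNA per cell. More cells that express a gene and more of its RNA per cell cannot be told apart.

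**Figure D4:**
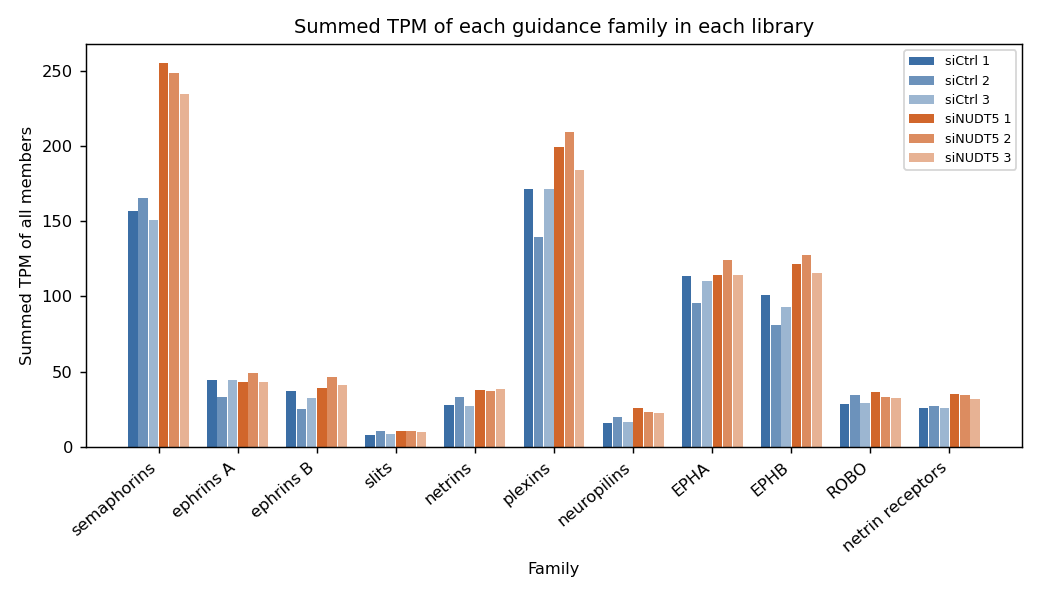
Summed TPM of all members of each family (bars from 0), 1 bar per library, siCtrl in blue shades and siNUDT5 in orange shades. The 3 semaphorin bars of siNUDT5 stand at 234 TPM or more, over siCtrl bars of at most 166 TPM, while the EPHA bars of the groups overlap.

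GC content moved with the level in siCtrl 2, and many guidance transcripts are rich in G and C. For the main GENCODE 29 transcript of each of 51 tested members, the position of siCtrl 2 relative to the mean of siCtrl 1 and 3 had a Spearman correlation of -0.76 with GC content, and over 12033 tested genes one of -0.833. These are correlations across genes of shared libraries, given as a description. The log2 change itself had a correlation of 0.326 with GC content over the members, and 0.0523 once siCtrl 2 was left out. Of the tested members 30 had at least 55% GC, beside 3700 of all tested genes with a transcript, and 15 of them rose (against 14.9% of all tested genes in that range). Their median log2 change was 0.47 with all libraries and 0.41 without siCtrl 2, beside 0.13 and 0.04 for all tested genes of that range. In the 11 members under 45% GC the medians were 0.27 and 0.49. SEMA6B, at 67.7% GC, had a log2 change of 1.65 without siCtrl 2, and UNC5C, at 44.3% GC, one of 1.0.

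**Figure D5:**
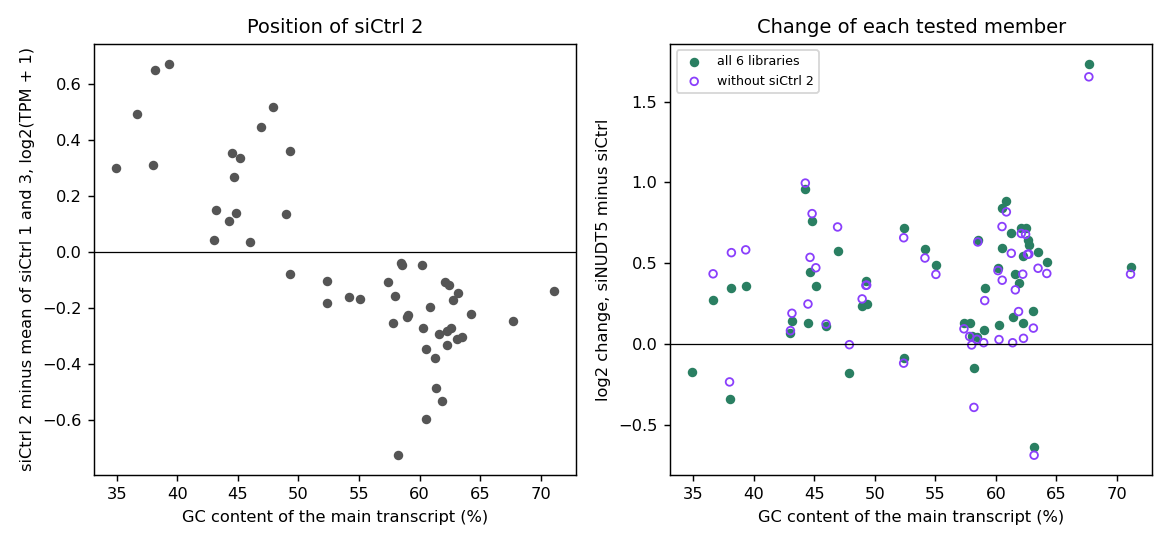
GC content (%) of the main transcript of each tested member against, at left, siCtrl 2 minus the mean of siCtrl 1 and 3 on the log2(TPM + 1) scale and, at right, the log2 change with all libraries (filled) and without siCtrl 2 (open). siCtrl 2 lies above the other siCtrl libraries for members of low GC content and below them for members of high GC content, while most changes stay above 0 in both fits.

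RefSeq promoter sequence (GRCh38.p14, 250 bases before to 50 after a start) was at hand for 62 of the 73 members, and 4 members that rose and have 1 annotated start each are shown, to let motif content be read beside the changes: SEMA4C, the ligand with the largest rise among those with a promoter entry, the receptors UNC5C and EPHB4, and PLXND1. Capitals mark 6 motifs, searched on both strands with overlapping matches counted each. These were GGGCGG (the GC box), TATAAA (the TATA box), TGACGTCA (the cyclic AMP response element), CACGTG (an E-box), TGATGNAA (the ATF4 composite element) and TGANTCA (the AP-1 site).
SEMA4C, chr2:96870031-96870330, minus strand: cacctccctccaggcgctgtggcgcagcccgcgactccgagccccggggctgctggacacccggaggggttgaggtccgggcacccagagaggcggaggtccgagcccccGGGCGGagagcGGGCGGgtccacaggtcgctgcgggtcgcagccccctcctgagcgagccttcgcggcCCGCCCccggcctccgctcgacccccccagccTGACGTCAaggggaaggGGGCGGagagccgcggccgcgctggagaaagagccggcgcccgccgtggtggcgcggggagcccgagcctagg
EPHB4, chr7:100827474-100827773, minus strand: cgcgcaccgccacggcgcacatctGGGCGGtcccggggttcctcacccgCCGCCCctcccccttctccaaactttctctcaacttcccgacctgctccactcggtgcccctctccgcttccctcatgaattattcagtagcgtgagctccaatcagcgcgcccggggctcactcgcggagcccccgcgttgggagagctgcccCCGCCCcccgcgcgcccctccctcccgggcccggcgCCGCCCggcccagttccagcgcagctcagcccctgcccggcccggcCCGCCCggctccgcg
PLXND1, chr3:129606627-129606926, minus strand: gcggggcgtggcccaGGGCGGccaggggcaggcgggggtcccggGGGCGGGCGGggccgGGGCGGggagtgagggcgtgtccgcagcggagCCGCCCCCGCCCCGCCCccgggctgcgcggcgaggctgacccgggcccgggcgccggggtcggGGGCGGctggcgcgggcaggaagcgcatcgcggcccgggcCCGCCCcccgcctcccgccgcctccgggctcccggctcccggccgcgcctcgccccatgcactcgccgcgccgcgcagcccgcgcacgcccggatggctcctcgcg
UNC5C, chr4:95548924-95549223, minus strand: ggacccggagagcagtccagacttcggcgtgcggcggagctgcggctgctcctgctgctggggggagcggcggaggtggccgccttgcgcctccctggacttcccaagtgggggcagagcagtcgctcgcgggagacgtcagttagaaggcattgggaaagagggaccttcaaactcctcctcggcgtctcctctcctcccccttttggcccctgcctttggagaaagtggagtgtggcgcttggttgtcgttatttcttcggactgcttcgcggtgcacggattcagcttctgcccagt

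The SEMA4C promoter held 4 GC boxes and 1 cyclic AMP response element, EPHB4 5 GC boxes and PLXND1 9, while UNC5C held none of the 6 motifs. The 23 promoters of 16 members that rose had a median of 28 CpG and 71.7% GC, and those of tested members that did not pass 20.0 and 63.7%, beside 25 and 64.7% for all tested genes. A GC box was found in 20 of the 23 (87%) and in 27 of the 37 from 26 members that did not pass (73%). The shares were 45% of all 35116 promoters at hand and 66.1% of those of tested genes. Genes with several starts count once per start, and such stretches can overlap. No promoter of a member that rose held the TATA box, the E-box or the ATF4 element, which 11.5%, 7.26% and 3.62% of all promoters and 6.06%, 9.24% and 2.06% of those of tested genes held. The cyclic AMP response element and the AP-1 site were each in 1 of the 23, against 1.85% and 7.71% of all and 2.79% and 5.39% of those of tested genes. A match is a match of letters and not a bound site.

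The 7-base words AAGACTT and AGACTTA had been picked on these same changes as frequent in 3' UTRs of genes that fell, and GATTAAC in those of genes that rose, so their presence in guidance genes is a description. In the longest GENCODE 29 3' UTR, 13 of 51 tested members held AAGACTT or AGACTTA, and 22.3% of 11913 searched genes did. Their median log2 change was 0.35, beside 0.41 in the 38 members without them, and -0.01 and 0.07 in all searched genes with and without. Carriers included SEMA3E, whose change was -0.34, and 4 members that rose, UNC5C, SEMA7A, NRP1 and PLXNC1. GATTAAC was found in 2 members, SEMA6A and SEMA3G, and 6.09% of searched genes held it. SEMA6B and ROBO3 held none of the 3 words. Sites are shown for carriers with changes of either sign, with the word in capitals and its position counted from the first base of the 3' UTR.
SEMA3E, base 342 of 4348: gaaaaattggAGACTTAtaatcatggt
SEMA3E, base 2687 of 4348: agatacctacAAGACTTggaggaatta
UNC5C, base 4102 of 6730: gggtggaatcAAGACTTttcacttctc
SEMA7A, base 246 of 1335: tcgatgacccAAGACTTtatcttctgg
NRP1, base 1633 of 2584: ttgaaaaaatAGACTTAaatgaatgct
PLXNC1, base 1754 of 2390: agttgcccaaAAGACTTcccctactac
SEMA6A, base 1859 of 2997: tccctgctgtGATTAACgagtaactcc
The part of these words in the members' changes was not tested.

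Partners of these families, from a list of 125 co-receptors, effectors and other ligands, also stood higher more often than lower. Of 99 tested, 19 rose (19.2%), 1 fell and 79 did not pass, with a median log2 change of 0.10, against the 10.9% and 5.2% of all tested genes. The counts were 39 and 3 without siCtrl 2, where 21.9% of all tested genes were called higher and 9.27% lower. They were 7 and 0 without siCtrl 3, and 6, 8 and 6 higher and none lower without siNUDT5 1, 2 and 3. In these last 4 fits 4.25% to 4.84% of all tested genes were called higher and 1.74% to 2.52% lower. With quantile normalization 11 rose and 2 fell, where 8.32% of all tested genes were called higher and 7.89% lower. With median-ratio scaling 14 rose and 2 fell, where the shares were 8.45% and 7.39%. The rises by group were 3 of 8 semaphorin and plexin co-receptors, 7 of 30 semaphorin and plexin effectors, 3 of 23 Eph effectors, 2 of 20 slit and ROBO partners and 4 of 18 netrin receptor partners.

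RGMA, a repulsive ligand of neogenin, had the largest change among them, at 4.95, 2.96 and 4.69 TPM across siCtrl 1 to 3, against 11.6, 12.9 and 11.2 TPM across siNUDT5 1 to 3. It rose from 4.2 ± 1.08 to 11.9 ± 0.867 TPM (log2 difference 1.33, SE 0.163, adjusted p = 0.00202 in limma), with no overlap between groups. DAG1, the slit-binding dystroglycan, rose from 68.5 ± 5.97 to 126 ± 2.14 TPM (log2 change 0.88), and L1CAM, a neural adhesion molecule that joins neuropilin 1 in the SEMA3A receptor, from 18.6 ± 2.05 to 33.2 ± 2.98 TPM (0.80). RAP1B, a small GTPase switched off by plexins, rose from 26.7 ± 5.8 to 55.7 ± 1.77 TPM (1.06). RAP1B has processed pseudogenes, and the sources used here do not say how reads shared between copies were counted. RHOA, the GTPase behind much of the collapse response and the most abundant semaphorin effector on the list, rose from 670.0 ± 55.2 to 977 ± 13.8 TPM (0.55). The proteoglycan gene CSPG4 (0.61), the myosin gene MYO10 (0.49), the Ras family gene RRAS (0.48), the tubulin gene TUBB3 (0.46), the Rac activator gene TIAM1 (0.45) and the collapsin response mediator gene DPYSL3 (0.48) rose as well. FYN, a kinase downstream of plexins and ephrins, was the partner that fell, from 11.6 ± 1.0 to 8.14 ± 0.183 TPM (log2 change -0.45, adjusted p = 0.0208 in limma). The most abundant of the other groups did not pass, ITGB1 (0.15), PTPN11 (-0.08) and CAP1 (0.23), except MAGED1, an UNC5 partner, which rose (0.40).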

How the data were processed

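Polyadenylated RNA of U2OS cells was measured in 3 siCtrl and 3 siNUDT5 libraries, grouped by the sample titles. The authors deposited 1 table of TPM, in which every column adds up to the same total. STAR 2.7.3a and DESeq2 1.22.1, with build hg19, are listed in the submitters' processing notes without roles. The sources used here do not give the annotation, the use of strand, the handling of shared reads or the TPM calculation. TPM are no counts, so limma 3.58.1 (R 4.3.3) was run on log2(TPM + 1) with a trend over the 12236 genes that average 1 TPM or more, and a log2 change on that scale understates that of low genes. The fit was tested on simulated data. The members and lists were chosen with earlier results of these data known, and no test of the set was made. Named are all members past the threshold, the most abundant of each family, members with an absolute change of at least 0.4 that did not pass, those beside the filter or at 0, and up to 12 partners with the most abundant of each group; other members are named to account for all. Relative depth was taken from low genes (below 0.3 TPM in siCtrl 1); 72% to 81.5% of their between-library ratios matched a simple whole-number ratio to 0.1%. Read numbers are the smallest whole numbers that fit, and they carry counting error as well as library-to-library spread. Promoters and gene order are from RefSeq (GRCh38.p14), transcripts from GENCODE 29, all matched by symbol. Alternatives were other pseudocounts, filters and scalings, no trend, a replicate block and leaving out each library. Python 3.11.15, numpy 2.4.6, pandas 2.3.3, scipy 1.17.1 and matplotlib 3.10.9 were used.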

Additional observations from a re-analysis of the deposited data

How the results depend on the processing

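None of the 22 members past the threshold, nor EFNB1 or EFNA2, changed direction in any alternative that tested them (13 or 14 each). Leaving out each library in turn gave 10 to 28 members higher and 0 to 2 lower, and 6 to 39 partners higher and 0 to 3 lower. Of all tested genes 4.25% to 21.9% were then called higher and 1.74% to 9.27% lower. The ligand median was 0.29 to 0.43 and the receptor median 0.36 to 0.44. A mean of at least 5 TPM left 30 members tested, 13 higher and 0 lower, beside 11.1% and 5.12% of all tested genes. Median-ratio scaling gave 14 partners higher and 2 lower, beside 8.45% of all tested genes higher and 7.39% lower. The fit without a trend gave 17 partners higher and 2 lower, beside 10.5% of all tested genes higher and 5.2% lower. Quantile normalization gave 2 members lower, 11 partners higher and 2 lower, beside 8.32% of all tested genes higher and 7.89% lower. Its receptor median was 0.30. The receptor median was 0.47 with a pseudocount of 0.1, 0.23 with 5 and 0.25 without a filter, and the ligand median 0.20 with a pseudocount of 5, which shrinks low genes by construction. Same-numbered libraries of the groups did not deviate together (correlations -0.426, -0.538 and -0.0449, and 0 of 6 libraries correlated best with its own number). This cannot decide whether they share a culture or batch, since deviations of 3 libraries from their own group mean are not independent. With the replicate number as a block 10 members and 5 partners were higher, 1 member and 0 partners lower, beside 3.97% of all tested genes higher and 2.07% lower. Median-ratio scaling moved the median of all log2 changes from 0.05 to -0.0049. The causes of these shifts were not tested. Depth limits what can be read from members of at most 3 reads in any library.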
